A study of Mus musculus with 16 samples.

Results

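The genes described here encode the caseins and other products of milk. They are the 5 caseins Csn1s1, Csn2, Csn1s2a, Csn1s2b and Csn3, the genes of the soluble milk proteins Wap, Lalba and Glycam1, and the genes Btn1a1 and Xdh, whose products coat the fat droplets of milk. They were taken by gene symbol from a table of 55487 genes, and all 10 were found. All 10 were among the 24252 genes that passed the filter on low counts, Glycam1 only through its level in 1 genotype.

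RNA was sequenced from 16 samples of mouse mammary organoids, which are cell clusters grown from tissue in culture. The genotypes were WT (n = 3), PIK3CA Mutation (n = 4, called PIK3CA mutant), HER2 Mutation (n = 4, HER2 mutant) and HER2 and PIK3CA Mutation (n = 5, double mutant). The series title names the changes HER2 V777L and PIK3CA H1047R, in a receptor tyrosine kinase and in the catalytic subunit of phosphoinositide 3-kinase. All groups were given the same medium with B27 supplement, EGF (epidermal growth factor) and Rspo1-Noggin conditioned medium, and prolactin is not among the components the labels list. WT organoids are labelled as normal breast and every mutant group as tumor breast, so genotype and tissue source cannot be told apart in a comparison with WT. The strain, age and hormonal state of the mice, the promoter or Cre behind each allele, and whether samples came from separate mice are not given in the sources used here, so p-values measure the spread between these samples, which may be technical.

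Caseins are the proteins that carry calcium phosphate in milk as micelles, with kappa-casein (Csn3) at the micelle surface. In the gland they are made by alveolar luminal cells in late pregnancy and lactation, when prolactin binds its receptor (Prlr), the kinase Jak2 is activated and the transcription factors Stat5a and Stat5b move to the nucleus. Many milk genes hold STAT sites before their start, and Cish and Socs2, feedback inhibitors of cytokine signalling, are induced by STAT5 as well.

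Total counts were 45545182 to 64168308 per sample. Erbb2, the mouse gene of HER2, was at 145 to 171 CPM (counts scaled to a common library size) in WT, 149 to 188 in PIK3CA mutant, 2696 to 4632 in HER2 mutant and 1499 to 2751 in double mutant samples, so its level followed the labels. Gene counts do not show the alleles themselves. The 5 markers of luminal epithelium (Krt8, Krt18, Krt19, Epcam, Cdh1) summed to 1685 to 4753 CPM in the 16 samples, and all 5 were detected in each genotype. The 5 fibroblast markers summed to 324 to 1879 CPM in WT and 26.0 to 613 in the mutant samples, and the 6 immune markers to 90.8 to 357 and 9.21 to 68.0.

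The caseins lie together on chromosome 5. In GRCm38 (GENCODE M21) Csn1s1 occupies chr5:87666208-87682578 on the plus strand, and Csn2 follows at chr5:87692624-87699630 on the minus strand. Csn1s2a is at chr5:87774567-87788797, Csn1s2b at chr5:87808082-87824426 and Csn3 at chr5:87925579-87932665, all 3 on the plus strand. The other members lie elsewhere, with Wap at chr11:6635482-6638637, Lalba at chr15:98480400-98482721, Glycam1 at chr15:103562759-103565081, Btn1a1 at chr13:23456992-23465901 and Xdh at chr17:73883895-73950196, all on the minus strand.

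Sequences are shown for the 4 members with a STAT motif near their start, because STAT5 is the factor through which prolactin acts on milk genes. The motif searched was TTCNNNGAA, which reads the same on both strands, in the 250 bases before and 50 bases after the start in RefSeq's table for GRCm38.p6. It was found in 4 of the 6 members with an entry (Csn1s1, Csn2, Csn1s2a and Glycam1, not Wap or Lalba), and in 8.30% of 32851 promoters of the same length. Btn1a1, Csn1s2b, Csn3 and Xdh had no entry. The 250 bases before the start are shown 5′ to 3′ on the gene's strand, with the motif in capitals. The Csn2 window is chr5:87699426-87699675, minus strand; the Csn1s1 window is chr5:87665958-87666207, plus strand; and the Glycam1 window is chr15:103565082-103565331, minus strand.
Csn2: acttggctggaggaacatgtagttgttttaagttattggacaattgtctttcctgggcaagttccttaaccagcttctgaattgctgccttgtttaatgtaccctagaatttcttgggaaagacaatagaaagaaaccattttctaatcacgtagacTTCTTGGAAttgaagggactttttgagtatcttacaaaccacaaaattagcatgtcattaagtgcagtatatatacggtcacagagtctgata
Csn1s1: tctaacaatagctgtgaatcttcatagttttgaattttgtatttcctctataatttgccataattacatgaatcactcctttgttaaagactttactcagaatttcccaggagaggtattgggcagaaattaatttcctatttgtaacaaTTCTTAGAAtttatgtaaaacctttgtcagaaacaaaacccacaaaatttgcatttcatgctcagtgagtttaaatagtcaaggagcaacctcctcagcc
Glycam1: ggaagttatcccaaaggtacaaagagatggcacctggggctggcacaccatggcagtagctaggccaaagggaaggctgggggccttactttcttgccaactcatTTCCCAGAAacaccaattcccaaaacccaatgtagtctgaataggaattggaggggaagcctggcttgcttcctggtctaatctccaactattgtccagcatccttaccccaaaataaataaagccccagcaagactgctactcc
In Csn1s2a the match lies after the RefSeq start, at bases 21 to 29. Only 29 bases around it are shown, from chr5:87774460-87774488, plus strand.
Csn1s2a: ttatagtgctTTCTTAGAAttacaatgac

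The motif was TTCTTGGAA at -93 to -85 in Csn2, TTCTTAGAA at -100 to -92 in Csn1s1 and TTCCCAGAA at -145 to -137 in Glycam1, counted from the RefSeq start. Csn1s2a held TTCTTAGAA, the same 9 bases as Csn1s1. RefSeq and GENCODE place the starts of Csn2 and Csn1s2a differently. Against the GENCODE positions given above, the Csn2 motif lies inside the gene, which reaches chr5:87699630. The Csn1s2a motif lies before the gene, which begins at chr5:87774567. A match is a string of letters and does not show a bound factor. None of the 6 windows held TATAAA (13.6% of all promoters) or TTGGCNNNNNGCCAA, the palindromic motif of NFI factors (0.0365%), on either strand.

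Beta-casein (Csn2) was the member that differed most between genotypes. Its level in WT was 0.0350, 0.100 and 0.334 CPM in replicates 1 to 3, from 2, 5 and 20 counts. In the PIK3CA mutant it was 0.143, 0.124, 0.421 and 0.232 CPM. Both groups lay close to the level that 3 counts give, 0.0468 to 0.0659 CPM, and they overlapped. Csn2 in the HER2 mutant was at 3092, 1304, 22709 and 8745 CPM, from 67656 counts in replicate 2 to 1020476 in replicate 3. In the double mutant it was at 12.8, 12.1, 0.883, 7.57 and 1.87 CPM. Each of the 4 HER2 mutant samples was above each of the 12 others, and each double mutant sample was above each WT and PIK3CA mutant sample. The lowest HER2 mutant sample and the highest differed 17.4-fold.

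In one edgeR fit of all samples, Csn2 rose in the HER2 mutant against WT by 15.76 on the log2 scale (SE 1.66, edgeR adjusted p = 0.000201). It was 15.27 higher than in the PIK3CA mutant (SE 1.42, edgeR adjusted p = 7.35e-05). From the HER2 mutant to the double mutant it fell by 10.31 (SE 1.07, edgeR adjusted p = 0.000558), a fitted ratio of 1272. These 3 calls held with each replicate left out in turn. In bulk RNA, more cells that express a gene and more RNA per cell cannot be told apart, which applies to every difference given here.

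The double mutant was still 5.44 higher than WT in Csn2 (SE 1.21, edgeR adjusted p = 0.00818), and PIK3CA mutant and WT did not differ detectably (0.49, SE 1.35, edgeR adjusted p = 0.904). Against the PIK3CA mutant the double mutant was 4.95 higher (SE 1.03, edgeR adjusted p = 0.0431). Of 9 fits that each left out a sample, 8 lost this difference (edgeR adjusted p from 0.0524 to 0.153), and the one without double mutant replicate 3 kept it. The interaction asks whether the step from HER2 mutant to double mutant differs from the step from WT to PIK3CA mutant, and for Csn2 it was -10.80 (SE 1.70, edgeR adjusted p = 0.0089).

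**Figure D1:**
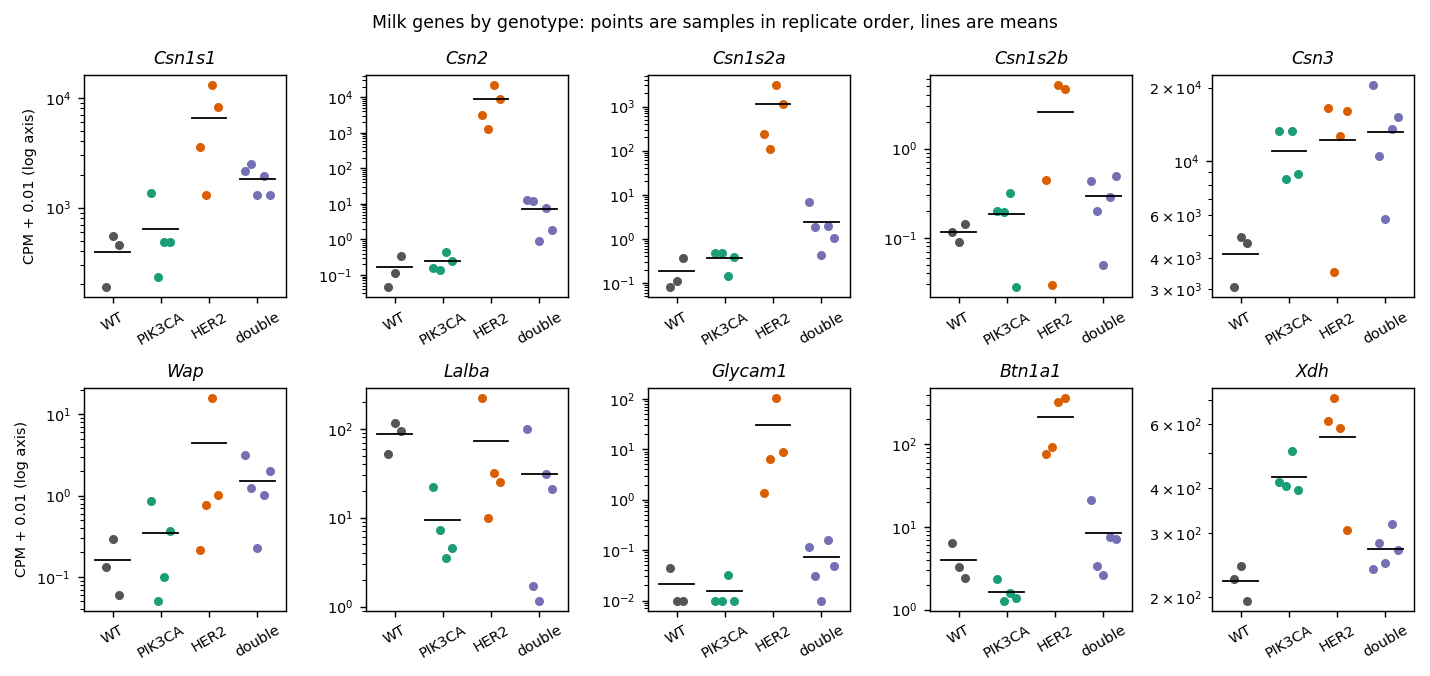
Level of each of the 10 milk genes in each sample, in CPM plus 0.01 on a log axis, with 1 panel and 1 axis range for each gene; points are samples in replicate order and lines are genotype means. Csn2, Csn1s2a, Glycam1 and Btn1a1 show the 4 HER2 mutant samples above all others, whereas Csn3 and Lalba overlap between the mutant genotypes.

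Alpha-S1-casein (Csn1s1) was expressed in every genotype. It stood at 189, 547 and 458 CPM in WT and at 1355, 234, 484 and 490.3 CPM in the PIK3CA mutant. HER2 mutant samples had 3588, 1292, 13149 and 8156 CPM, and double mutant samples 2149.6, 2511, 1295, 1942 and 1298 CPM. All HER2 and double mutant samples were above all WT samples, and HER2 mutant replicate 2 lay below PIK3CA mutant replicate 1 and the double mutant samples. Csn1s1 rose by 4.04 from WT to HER2 mutant (SE 0.759, edgeR adjusted p = 0.00451) and was 3.35 higher in the HER2 than in the PIK3CA mutant (SE 0.651, edgeR adjusted p = 0.0104). The step from HER2 mutant to double mutant was -1.83 (SE 0.568), short of a call at an edgeR adjusted p of 0.0951. It passed without HER2 mutant replicate 2, the lowest of its group (-2.17, edgeR adjusted p = 0.0361). The double mutant was 2.21 above WT (SE 0.676, edgeR adjusted p = 0.0441), and this was lost when any 1 of the 8 samples was left out, with edgeR adjusted p from 0.0502 to 0.18.

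Csn1s2a, an alpha-S2-type casein gene, followed Csn2. It was at 0.0699, 0.100 and 0.367 CPM in WT and at 0.461, 0.475, 0.133 and 0.375 CPM in the PIK3CA mutant. HER2 mutant samples had 237, 107, 3128 and 1122 CPM, and double mutant samples 6.81, 1.85, 0.412, 1.94 and 1.01 CPM. No HER2 mutant sample overlapped another genotype, and double mutant replicate 3 lay within the PIK3CA mutant range. Csn1s2a rose from WT to HER2 mutant by 12.60 (SE 1.60, edgeR adjusted p = 0.000494) and fell by 8.89 from HER2 to double mutant (SE 1.07, edgeR adjusted p = 0.00098). Its interaction was -9.88 (SE 1.67, edgeR adjusted p = 0.012). The double mutant was above WT in all samples, by 3.70 (SE 1.22), short of a call at an edgeR adjusted p of 0.0612. It passed without double mutant replicate 3 (3.97, edgeR adjusted p = 0.0469).

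The other alpha-S2-type gene, Csn1s2b, stayed low. It was at 0.105, 0.0800 and 0.133 CPM in WT and at 0.191, 0.186, 0.310 and 0.0179 CPM in the PIK3CA mutant. The HER2 mutant values were 0.434, 0.0193, 5.21 and 4.67 CPM, from 23, 1, 234 and 228 counts, and in the double mutant 0.426, 0.189, 0.0393, 0.277 and 0.486 CPM. HER2 mutant replicates 3 and 4 were the only samples above 1 CPM, and replicate 2, with 1 count, was too low to be placed against WT. The difference between HER2 mutant and WT was 4.56 (SE 1.29, edgeR adjusted p = 0.035), but 5 of 7 fits with a sample left out did not call it, those without any 1 of the 3 WT samples or without HER2 mutant replicate 3 or 4, with edgeR adjusted p from 0.0578 to 0.129.

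Kappa-casein (Csn3) was abundant in every genotype. Its levels were 3049, 4877 and 4627 CPM in WT and 13259, 8476, 13272 and 8898 CPM in the PIK3CA mutant. They were 16429.9, 3521, 12731 and 16082 CPM in the HER2 mutant and 20559, 10471, 5821, 13537 and 15201 CPM in the double mutant. All PIK3CA and double mutant samples were above all WT samples, HER2 mutant replicate 2 fell within the WT range, and the 3 mutant genotypes overlapped. Csn3 was 1.65 higher in the double mutant than in WT (SE 0.462, edgeR adjusted p = 0.0293) and 1.54 higher in the HER2 mutant (SE 0.472, edgeR adjusted p = 0.0484). The first call was lost without any 1 WT sample or without double mutant replicate 1, with edgeR adjusted p from 0.0545 to 0.136, and the second in 6 of 7 fits with a sample left out, with edgeR adjusted p from 0.0789 to 0.183. Between HER2 and double mutant the difference was 0.11 (SE 0.397, edgeR adjusted p = 0.93). The Csn3 gene overlaps 1700066N21Rik on the opposite strand, and strand use in counting is not given, so reads of the overlap cannot be assigned to one of them.

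Levels of different caseins were compared as TPM, which divide counts by transcript length before scaling each sample to a common total. The sum of the 5 caseins was 6027 ± 1571 TPM in WT (SD, n = 3), 14061 ± 3937 in the PIK3CA mutant (n = 4), 41693 ± 26107 in the HER2 mutant (n = 4) and 18722 ± 7187 in the double mutant (n = 5). The HER2 mutant sums ranged from 9378 to 70257 TPM and overlapped the PIK3CA mutant (10133 to 17930) and the double mutant (9231 to 26515). All of them were above the WT sums, which reached 7280. Csn3 made up 90.7% ± 2.46 of casein TPM in WT, 94.2% ± 3.26 in the PIK3CA mutant and 85.0% ± 5.60 in the double mutant, but 45.7% ± 19.2 in the HER2 mutant. The HER2 mutant samples ranged from 21.1% to 66.8% and lay below all others.

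In the HER2 mutant Csn2 gave 27.8% ± 12.7 of casein TPM, Csn1s1 21.8% ± 3.8 and Csn1s2a 4.65% ± 3.24. Csn2 gave 0.0523% ± 0.0399 in the double mutant and less than that in WT and the PIK3CA mutant, 0.00375% and 0.00237%. The casein mixture of the HER2 mutant thus held sizeable shares of Csn2 and Csn1s1 beside Csn3, while the other genotypes held mainly Csn3 with some Csn1s1. These shares depend on the lengths used: with all annotated exons of a gene in place of its principal transcript, a choice made after seeing the data, Csn2 gave 19.3% ± 11.2 and Csn3 58.8% ± 19.4 in the HER2 mutant.

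**Figure D2:**
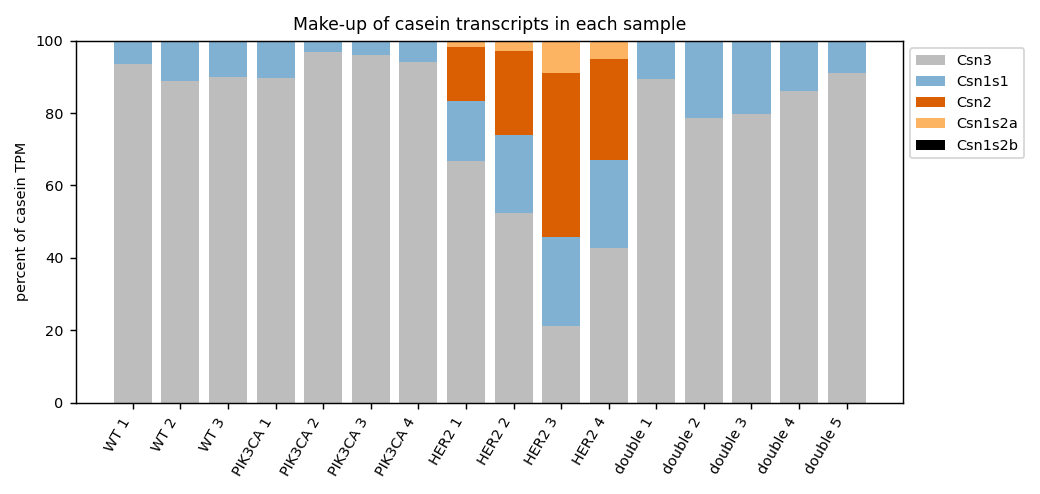
Share of each casein in the summed TPM of the 5 caseins, in percent, as 1 stacked bar per sample. Csn3 fills most of each WT, PIK3CA mutant and double mutant bar, and 21.1% to 66.8% of the HER2 mutant bars, where Csn2 takes 15.1% to 45.2%.

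Among the soluble milk proteins, Glycam1, a mucin-like milk protein, showed the pattern of Csn2. It had 2, 0 and 0 counts in WT, 0, 0, 1 and 0 in the PIK3CA mutant, 72, 339, 4677 and 428 in the HER2 mutant and 6, 1, 0, 8 and 2 in the double mutant. In CPM the HER2 mutant values were 1.36, 6.53, 104 and 8.76. Every HER2 mutant sample was above every other sample, and 3 of 3 WT, 4 of 4 PIK3CA mutant and 3 of 5 double mutant libraries were under 3 counts. Because Glycam1 passed the filter only through the HER2 mutant, a difference between that genotype and any other was bound to appear, so its levels are a description and it is set aside from the counts over the members. The ratio of HER2 mutant to WT counts, summed over samples and scaled for depth, was 2319.8, and that of HER2 to PIK3CA mutant 5898. These ratios are rough, because WT and PIK3CA mutant had 2 and 1 counts in all. HER2 mutant replicate 3 gave 4677 of the 5516 counts of its group, and the ratios do not measure this spread between samples.

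Wap encodes whey acidic protein, the major whey protein of mouse milk. It was at 0.122, 0.280 and 0.05 CPM in WT and 0.859, 0.0413, 0.0886 and 0.357 CPM in the PIK3CA mutant. Its HER2 mutant values were 0.207, 0.752, 15.9 and 1.00 CPM, and its double mutant values 3.12, 1.22, 0.216, 0.998 and 1.98 CPM. HER2 mutant replicate 3 stood apart from the other 3, and replicate 1 fell within the WT range. The difference between HER2 mutant and WT was 4.89 (SE 1.49, edgeR adjusted p = 0.0478), and without replicate 3 it was 2.12 (edgeR adjusted p = 0.24). The call was also lost without any 1 WT sample, with edgeR adjusted p from 0.0876 to 0.191. The double mutant differed from WT by 3.33 (SE 1.39, edgeR adjusted p = 0.134).

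Lalba encodes alpha-lactalbumin, the subunit that turns a galactosyltransferase into lactose synthase, and it did not follow the caseins. Its levels were 52.6, 115 and 95.2 CPM in WT and 22.3, 7.29, 3.50 and 4.54 CPM in the PIK3CA mutant. They were 222, 9.93, 31.7 and 25.1 CPM in the HER2 mutant and 99.7, 1.70, 1.16, 31.3 and 21.1 CPM in the double mutant. All PIK3CA mutant samples were below all WT samples, and the HER2 and double mutant samples spread across both. No comparison passed for Lalba: PIK3CA mutant minus WT was -3.22 (SE 1.25, edgeR adjusted p = 0.186), HER2 mutant minus WT -0.28 (SE 1.19, edgeR adjusted p = 0.912) and double mutant minus WT -1.50 (SE 1.12, edgeR adjusted p = 0.423). In an edgeR fit of PIK3CA mutant and WT samples alone the first passed (edgeR adjusted p = 0.00956). That fit made 4136 calls over all genes, against 1096 in the fit of all samples.

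Butyrophilin (Btn1a1) is a membrane protein of the milk fat globule. It was at 6.36, 3.30 and 2.40 CPM in WT and 2.34, 1.28, 1.59 and 1.38 CPM in the PIK3CA mutant. In the HER2 mutant it was at 77.0, 93.4, 326 and 364 CPM, and in the double mutant at 21.3, 3.34, 2.65, 7.46 and 7.21 CPM. The HER2 mutant samples were all above the rest, the WT and double mutant samples overlapped, and the PIK3CA mutant samples were the lowest. Btn1a1 rose by 5.74 from WT to HER2 mutant (SE 0.833, edgeR adjusted p = 0.00107), a fitted ratio of 53.4, and fell by 4.68 from HER2 to double mutant (SE 0.631, edgeR adjusted p = 0.00198). The HER2 mutant was 7.02 above the PIK3CA mutant (SE 0.780, edgeR adjusted p = 0.000465). Its interaction of -3.40 did not pass (SE 0.913, edgeR adjusted p = 0.0885) and passed without double mutant replicate 1, the highest of that group (-4.10, edgeR adjusted p = 0.0297).

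Xanthine dehydrogenase (Xdh), a purine enzyme that also binds butyrophilin on the fat globule, varied least among the members within the HER2 mutant. It stood at 224, 244 and 196 CPM in WT and 416, 406, 505 and 394 CPM in the PIK3CA mutant. In the HER2 mutant it was at 613, 709, 586 and 307 CPM, and in the double mutant at 239.7, 282, 249, 317 and 270.2 CPM. All samples of both single mutants were above WT, the double mutant was below the PIK3CA mutant in all samples, and HER2 mutant replicate 4 fell within the double mutant range. Xdh rose by 0.96 from WT to PIK3CA mutant (SE 0.218, edgeR adjusted p = 0.0179) and by 1.32 from WT to HER2 mutant (SE 0.221, edgeR adjusted p = 0.00232). The first of these calls was lost without WT replicate 1 or 3 or PIK3CA mutant replicate 3, with edgeR adjusted p from 0.0545 to 0.126. The double mutant minus WT was 0.30 (SE 0.206, edgeR adjusted p = 0.383), and double minus HER2 mutant -1.03 (SE 0.187, edgeR adjusted p = 0.0106). The interaction of Xdh was -1.99 (SE 0.288, edgeR adjusted p = 0.0071). The gene overlaps a processed pseudogene, CT025731.2.

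Counted over the 9 genes other than Glycam1, 8 rose from WT to HER2 mutant at an edgeR adjusted p under 0.05, all but Lalba. Of all genes tested 10.4% changed, 4.75% upward and 5.63% downward. The median log2 difference of the 9 was 4.56, beside 0.03 for all genes, and 5 had groups that did not overlap, as did 9.81% of all genes in that direction. In an edgeR fit of HER2 mutant and WT samples alone 3 of them passed (Csn2, Csn1s2a, Btn1a1), with edgeR adjusted p of 0.0534 for Csn1s1 and 0.0567 for Xdh. From WT to PIK3CA mutant 1 of the 9 changed, Xdh, against 4.52% of all genes; the groups did not overlap for 2 higher members (Csn3, Xdh) and 2 lower (Lalba, Btn1a1), against 29.5%. From WT to double mutant 3 rose (Csn1s1, Csn2, Csn3), against 5.03% rising among all genes, and 4 had higher groups that did not overlap, against 9.68%. These 3 comparisons share the WT samples.

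Between the mutants, which share their labelled source, 4 of the 9 members were higher in the HER2 than in the PIK3CA mutant (Csn1s1, Csn2, Csn1s2a, Btn1a1), against 2.21% of all genes, and for 3 of them the groups did not overlap, against 5.63%. In a fit of these 2 genotypes alone Csn1s1 was no longer called (edgeR adjusted p = 0.0615). From HER2 to double mutant 4 of the 9 fell (Csn2, Csn1s2a, Btn1a1, Xdh), against 1.47% of all genes, with a median over the 9 of -1.83 beside -0.02. The groups did not overlap for 3 of these, against 2.38%, and Xdh was no longer called in a fit of these genotypes alone (edgeR adjusted p = 0.100). Against the PIK3CA mutant the double mutant was higher in 1 member, Csn2, against 0.309%. The interaction passed for 3 members (Csn2, Csn1s2a, Xdh), all negative, against 0.544% of all genes. Unlike the comparisons between mutants, it includes the WT samples, so genotype and tissue source cannot be told apart in it. These comparisons share samples with each other and with those above, so their counts are not separate evidence.

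**Figure D3:**
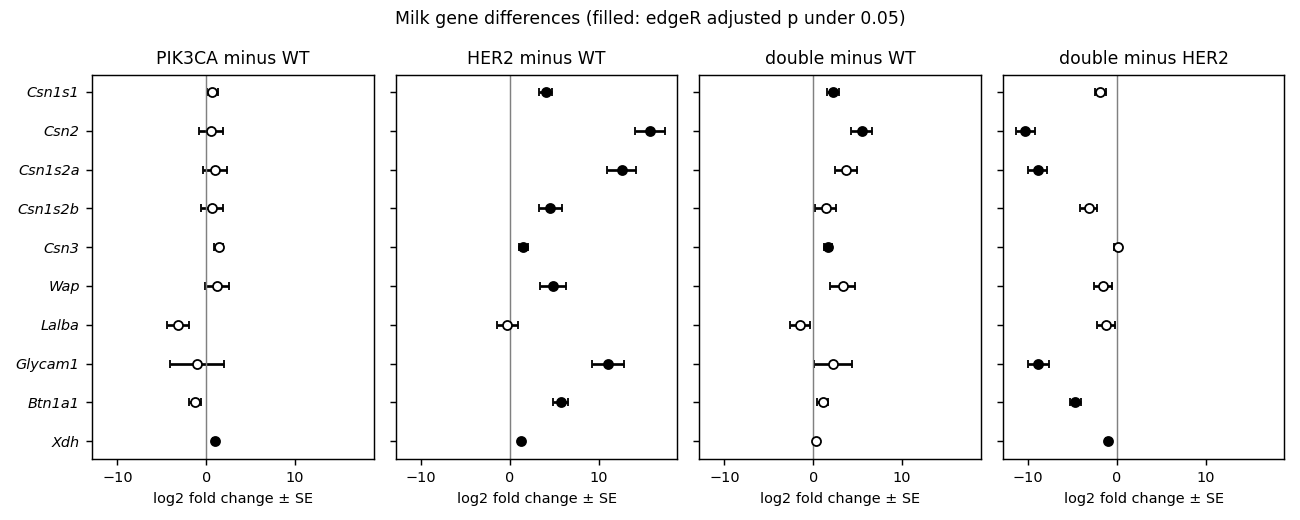
Log2 difference of each milk gene with its SE, in 4 panels on 1 axis: PIK3CA mutant, HER2 mutant and double mutant minus WT, and double minus HER2 mutant; filled points have an edgeR adjusted p under 0.05. The HER2 mutant panel holds 9 filled points to the right of 0 and the double minus HER2 mutant panel 5 to the left, in both Glycam1 among them, which passed the filter only through the HER2 mutant.

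The samples within a genotype were not alike. HER2 mutant replicate 3 was the highest of its group for 6 of the 10 genes, and replicate 2 the lowest for 6, which were the 5 caseins and Lalba. In the double mutant, replicate 1 was the highest for 6 genes and replicate 3 the lowest for 9, all but Xdh. The ratio of highest to lowest HER2 mutant sample was 2.31 for Xdh, 4.67 for Csn3, 4.73 for Btn1a1, 10.2 for Csn1s1 and 29.2 for Csn1s2a. Across all 16 samples, log2 CPM of Csn2 went with that of Csn1s2a (Pearson r = 0.983), Btn1a1 (0.939), Glycam1 (0.934) and Csn1s1 (0.866), and less with Csn3 (0.354) and Lalba (0.188). These correlations describe 16 samples that fall into genotypes, and the genotypes make up most of the range. Glycam1 passed the filter only through the HER2 mutant, where Csn2 was highest, so its correlation is a description only.

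Of 12692 genes other than the 10 milk genes compared in the same way, those whose log2 CPM over the 16 samples was most like that of Csn2 were Btn2a2 (r = 0.947), Slc45a3 (0.931), Lpcat4 (0.929), Susd1 (0.908) and Aup1 (0.902). Btn2a2, another butyrophilin gene, was at 0.835 ± 0.136 CPM in WT, 0.938 ± 0.435 in the PIK3CA mutant, 4.53 ± 0.617 in the HER2 mutant and 1.76 ± 0.286 in the double mutant (SD, n = 3, 4, 4 and 5). Slc45a3, a sugar transporter family member, was at 15.3 ± 2.54, 30.5 ± 6.74, 157 ± 52.0 and 36.7 ± 18.6 CPM in the same order. Lpcat4, a phospholipid acyltransferase, was at 6.78 ± 1.83, 6.98 ± 1.78, 68.4 ± 18.1 and 18.2 ± 3.63 CPM. All 3 had their highest mean in the HER2 mutant and the next in the double mutant, with a far smaller range than Csn2. Because they were picked by their likeness to Csn2 in these samples, this order follows from the choice.

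A wider list of 28 milk and secretory genes, of which 27 were tested, was followed in the same fit. From WT to HER2 mutant 5 rose and 2 fell, with a median of 0.70 beside 0.03 for all genes, of which 4.75% rose and 5.63% fell. From WT to double mutant 7 rose and 2 fell, with a median of 0.81 beside 0.01, where 5.03% of all genes rose and 6.72% fell. Fasn, fatty acid synthase, was at 502, 505 and 598 CPM in WT, 808, 649, 797 and 739 in the PIK3CA mutant, 2149, 1114, 2029 and 3412 in the HER2 mutant and 1151, 1169.9, 901, 2265 and 2348 in the double mutant. The HER2 mutant samples were above all WT and PIK3CA mutant samples and overlapped the double mutant. Fasn rose by 2.02 from WT to HER2 mutant (SE 0.371, edgeR adjusted p = 0.00386) and was 1.54 higher in the HER2 than in the PIK3CA mutant (SE 0.329, edgeR adjusted p = 0.0167), the second of these lost without PIK3CA mutant replicate 2.

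Ltf, the iron-binding milk protein lactoferrin, was at 3.44, 4.64 and 2.30 CPM in WT and 101, 52.2, 116 and 78.7 in the PIK3CA mutant. It was at 89.1, 7383, 1873 and 86.0 CPM in the HER2 mutant and 106, 414, 15.6, 157 and 111 in the double mutant. Every mutant sample was above every WT sample, and HER2 mutant replicate 2, the lowest of its group for the caseins, was the highest of all 16 for Ltf. The rise of Ltf from WT to HER2 mutant was 9.41 (SE 1.72, edgeR adjusted p = 0.00386). Wfdc18, a small whey-type protease inhibitor family member, rose by 2.68 (SE 0.503, edgeR adjusted p = 0.00451), from 42.9, 37.2 and 19.4 CPM in WT to 206, 51.1, 343 and 247 in the HER2 mutant. It was at 107, 135, 104 and 137 CPM in the PIK3CA mutant and 180, 200, 91.1, 111 and 91.1 in the double mutant. Every mutant sample was thus above every WT sample for Wfdc18 as well.

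Lcn2, the siderophore-binding lipocalin, was 1.17 higher in HER2 mutant than WT (SE 0.308, edgeR adjusted p = 0.0262), and 5 of 7 fits with a sample left out did not call it. All PIK3CA and double mutant samples were above WT too, by 1.02 (SE 0.307, edgeR adjusted p = 0.0746) and 0.87 (SE 0.295, edgeR adjusted p = 0.0689). Members of the wider list also fell. Plin2, which coats cytoplasmic fat droplets, fell by 1.42 from WT to HER2 mutant (SE 0.288, edgeR adjusted p = 0.00686), and it was lower than WT in the PIK3CA mutant (-1.75, SE 0.289, edgeR adjusted p = 0.00237) and the double mutant (-1.02, SE 0.271, edgeR adjusted p = 0.0228) as well. Spp1, osteopontin, a secreted phosphoprotein of milk, fell by 1.86 (SE 0.439, edgeR adjusted p = 0.0154), a call lost without WT replicate 1.

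From the PIK3CA to the HER2 mutant 5 of the 27 were higher and none lower (2.2% of all genes were), with a median of 0.33 beside 0.07. Among them Thrsp, a regulator of fatty acid synthesis, was at 4.29, 0.0826, 1.04 and 2.07 CPM in the PIK3CA mutant and 156, 3.78, 18.4 and 53.5 in the HER2 mutant. HER2 mutant replicate 2 lay below PIK3CA mutant replicate 1. WT was at 7.95, 6.42 and 14.5 CPM, above every PIK3CA mutant sample. The difference of 4.94 in Thrsp (SE 1.07, edgeR adjusted p = 0.0181) was lost without PIK3CA mutant replicate 3 or 4, and in a fit of these genotypes alone. From HER2 to double mutant 1 of the 27 rose, Spp1, and 2 fell, with a median of -0.13 beside -0.02 (1.03% of all genes rose and 1.47% fell). The rise of Spp1 (1.67, SE 0.402, edgeR adjusted p = 0.0414) was not called in 6 of 9 fits with a sample left out, nor in a fit of these genotypes alone. One of those that fell was Cidea, a fat droplet protein, whose HER2 mutant samples stood at 50.9 CPM in replicate 2 and 0.512 to 0.868 in the others; its call (-4.67, SE 1.14, edgeR adjusted p = 0.0435) did not hold in 6 of 9 fits with a sample left out, the fit without replicate 2 among them. The other that fell was Cd36.

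Cd36 and Lao1 also passed and are named after their values were seen. Cd36, the fatty acid translocase found on milk fat globules, was at 19.5, 9.89 and 29.9 CPM in WT, 0.111, 0, 0.177 and 0 in the PIK3CA mutant, 9.34, 4.59, 13.0 and 30.2 in the HER2 mutant and 0.0355, 0.0210, 0.0393, 0 and 0.0389 in the double mutant. WT and HER2 mutant samples overlapped and lay above every PIK3CA and double mutant sample, and each double mutant library was under 3 counts. Cd36 was 7.61 higher in the HER2 than in the PIK3CA mutant (SE 0.857, edgeR adjusted p = 0.000487), and its fall from HER2 to double mutant passed with an edgeR adjusted p of 0.000421. Lao1, an L-amino acid oxidase, had 0 counts in the 3 WT samples and stood at 3.24, 4.36, 24.3 and 6.88 CPM in the HER2 mutant and 9.88, 3.29, 0, 6.54 and 10.3 in the double mutant. Lao1 passed between HER2 mutant and WT (edgeR adjusted p = 0.00804) and between HER2 and PIK3CA mutant (edgeR adjusted p = 0.0149). Fits with a sample left out were not run for these 2 genes.

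For the wider list, fitted with WT and HER2 mutant samples alone, Fasn kept its call, and Ltf, Wfdc18, Lcn2, Plin2 and Spp1 did not. Ltf was also higher in the HER2 than in the PIK3CA mutant (4.76, SE 1.22, edgeR adjusted p = 0.0391), which 5 of 8 fits with a sample left out did not call.

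Of 21 genes of the prolactin, STAT5 and alveolar pathway, 20 were tested, and 2 rose and 2 fell from WT to HER2 mutant, with a median of -0.07 beside 0.03 for all genes, of which 4.75% rose and 5.63% fell. Both that rose are feedback inhibitors. Cish was at 7.01, 6.42 and 6.59 CPM in WT, 7.12, 7.27, 9.01 and 9.52 in the PIK3CA mutant, 20.3, 37.2, 36.5 and 35.7 in the HER2 mutant and 6.08, 12.6, 12.7, 7.63 and 8.17 in the double mutant. Each HER2 mutant sample was above each other sample. Cish rose by 2.28 from WT to HER2 mutant (SE 0.281, edgeR adjusted p = 0.00038), was 1.98 higher than in the PIK3CA mutant (SE 0.250, edgeR adjusted p = 0.000848) and fell by 1.78 to the double mutant (SE 0.230, edgeR adjusted p = 0.0014). Its interaction was -2.08 (SE 0.353, edgeR adjusted p = 0.012).

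Socs2 was at 13.0, 23.1 and 13.7 CPM in WT, 31.3, 27.7, 26.2 and 24.9 in the PIK3CA mutant, 396, 40.0, 154 and 178 in the HER2 mutant and 41.6, 30.3, 39.2, 38.1 and 47.1 in the double mutant. HER2 mutant replicate 2, the lowest for the caseins, was also the lowest of its group for Socs2 and lay within the double mutant range. Socs2 rose by 3.53 from WT to HER2 mutant (SE 0.529, edgeR adjusted p = 0.00128) and fell by 2.29 to the double mutant (SE 0.411, edgeR adjusted p = 0.00979). It was 2.80 higher in the HER2 than in the PIK3CA mutant (SE 0.454, edgeR adjusted p = 0.00379). In fits of only the genotypes compared this last call of Socs2 and those of Cish for the 3 pairs passed, and the other Socs2 calls did not.

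Prlr, Jak2, Stat5a, Stat5b and Elf5 did not pass between HER2 mutant and WT. The difference was -0.49 for the receptor Prlr (SE 0.268, edgeR adjusted p = 0.263), 0.04 for Jak2 (SE 0.214, edgeR adjusted p = 0.924) and -0.15 for Stat5a (SE 0.179, edgeR adjusted p = 0.63). It was -0.23 for Stat5b (SE 0.238, edgeR adjusted p = 0.58) and 0.56 for Elf5, a transcription factor of alveolar cells (SE 0.292, edgeR adjusted p = 0.244). Stat5a was lower in the double mutant than in WT (-0.58, SE 0.169, edgeR adjusted p = 0.0351). None of these 5 passed from HER2 to double mutant either, with differences from -0.45 for Stat5b to 0.53 for Prlr. Those that fell from WT to HER2 mutant were Erbb4, a neuregulin receptor of lactating gland (-4.0, SE 0.991, edgeR adjusted p = 0.0194, lost without WT replicate 1 or 3), and Socs1 (-1.01, SE 0.218, edgeR adjusted p = 0.00971). Neither was called in a fit of these genotypes alone. Erbb4 was at 4.90 to 26.3 CPM in WT and 0.0223 to 2.64 in the HER2 mutant. It was also low in the PIK3CA mutant (0.811 to 5.14) and the double mutant (0.0393 to 0.369). Socs1 was at 5.54 to 6.32 CPM in WT and lower in every mutant sample. It was at 2.63 to 3.23 in the PIK3CA, 2.51 to 3.58 in the HER2 and 3.08 to 5.15 in the double mutant. Id2, which alveolar growth needs, was lower in the HER2 than in the PIK3CA mutant (-0.70, SE 0.182, edgeR adjusted p = 0.0407), which 7 of 8 fits with a sample left out did not call. RNA levels do not show the phosphorylation of STAT5.

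**Figure D4:**
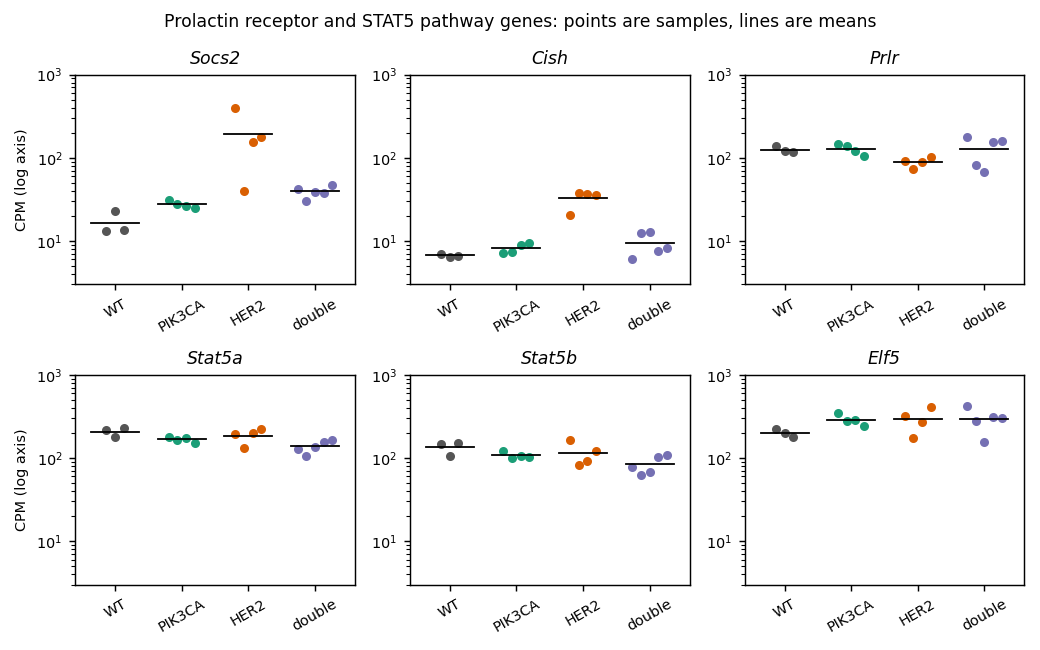
Level of Socs2, Cish, Prlr, Stat5a, Stat5b and Elf5 in each sample, in CPM on a log axis; points are samples in replicate order and lines are genotype means. Cish is at 20.3 to 37.2 CPM in the HER2 mutant and at 6.08 to 12.7 elsewhere, while Prlr, Stat5a, Stat5b and Elf5 did not pass the test between HER2 mutant and WT.

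The genes around the caseins were low. Of 17 annotated protein-coding genes between the caseins or within 500 kb of them, 4 passed the filter on low counts: Sult1d1, Odam, Prol1 and Amtn. The highest mean of any of the 4 in a genotype was 1.55 CPM, for Amtn in WT. Odam, which lies between the caseins, was at 0.0712 ± 0.0672 CPM in WT, 0.112 ± 0.0581 in the PIK3CA mutant, 0.430 ± 0.223 in the HER2 mutant and 0.251 ± 0.209 in the double mutant, and did not pass between HER2 mutant and WT (2.55, SE 0.977, edgeR adjusted p = 0.11). Against WT, Prol1 was higher in the HER2 mutant (2.38, SE 0.589, edgeR adjusted p = 0.019), with a HER2 mutant mean of 0.538 CPM. Sult1d1 was higher too (edgeR adjusted p = 0.0499), with every WT library under 3 counts. These differences were not particular to the HER2 mutant. Every PIK3CA and double mutant sample was also above WT for Prol1, at 0.318 to 0.357 and 0.259 to 0.903 CPM. Sult1d1 was at 0.143 to 0.244 CPM in the PIK3CA mutant and 0.0386 to 0.430 in the HER2 mutant. In the double mutant it was at 0.0393 to 0.603. Against WT, Amtn was lower in the HER2 mutant, with every library of that genotype under 3 counts. It was at 2.45, 0.320 and 1.87 CPM in WT and at most 0.248 CPM in any other sample. Because Amtn passed the filter only through WT, a fall from WT was bound to appear, so its levels are a description. None of the 4 passed between HER2 and PIK3CA mutant or between HER2 and double mutant, where Csn2, Csn1s2a and, for the first, Csn1s1 did.

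Markers of other epithelial cells also differed between genotypes. Alveolar luminal markers that are not milk genes (Elf5, Kit, Aldh1a3, Cd14) summed to 901 to 1092 CPM in WT, 1114 to 1374 in the PIK3CA mutant, 581 to 1056 in the HER2 mutant and 447 to 1096 in the double mutant. None of the 4 passed between HER2 mutant and WT, with differences of 0.56 for Elf5, -0.16 for Kit, -0.96 for Cd14 and -1.34 for Aldh1a3. The 7 basal markers summed to 259 to 971 CPM in the HER2 mutant and 470.2 to 1368 in the other genotypes. From WT to HER2 mutant 2 of the 7 fell, against 5.63% of all genes. They were Krt5 (-2.89, SE 0.570, edgeR adjusted p = 0.00592) and Myh11 (-2.81, SE 0.337, edgeR adjusted p = 0.000344). The other 5 did not pass and went both ways, from -1.01 for Acta2 to 1.70 for Krt17. Myh11 was lower than WT (5.58 to 12.0 CPM) in every mutant sample. It was at 2.50 to 5.07 CPM in the PIK3CA, 0.962 to 1.45 in the HER2 and 1.07 to 2.46 in the double mutant. Krt5 was at 131 to 345 CPM in WT and 14.1 to 52.0 in the HER2 mutant. The PIK3CA mutant (99.6 to 412) and double mutant (69.0 to 346) overlapped WT for Krt5. From HER2 to double mutant 1 of the 7 passed, Krt5, which was 2.73 higher (SE 0.533, edgeR adjusted p = 0.0152), against 1.03% of all genes rising. Fits with a sample left out, or of only the groups compared, are not given for Krt5 and Myh11. The 5 hormone-sensing markers summed to 118 to 143 CPM in the HER2 mutant and 103 to 302 in the other genotypes. All 7 basal and all 5 hormone-sensing markers were detected in every genotype, and the part of these differences in the milk gene results was not tested.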

How the data were processed

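Total RNA of 16 organoid samples was made into libraries with a SMARTer mRNA-seq kit, per the labels' protocols. The submitters' processing notes name bcl2fastq 2.20, STAR 2.0.4b, Subread, featureCounts 1.4.5, DESeq2 1.33.5 and the build mm10, without roles; the annotation and the use of strand in counting are not given in the sources used here. The authors deposited whole-number read counts per gene. The deposited normalized table (a signal) was found to be these counts divided by 1 factor per sample (largest relative difference 1.05e-09) and was used as an alternative only. Of 55774 rows, 287 repeated an identifier and were dropped. Counts were tested with edgeR 4.0.16 (R 4.3.3) in 1 quasi-likelihood fit of the 16 samples, with genotype as the only factor, TMM scaling, filterByExpr and Benjamini-Hochberg adjustment over the 24252 genes tested; a call is an adjusted p under 0.05, two-sided. SE is the log2 difference divided by the square root of F. CPM are TMM-scaled, log2 CPM used a prior count of 2, and TPM used principal transcripts of GENCODE M21 (GRCm38). The scripts were tested on simulated data. Alternatives were other scalings, no filter on low counts, DESeq2 1.42.0, fits of only the groups compared, the replicate number as a block, and leaving out each sample.

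The 10 members and the lists were chosen with earlier results of these data known. Named with values from the wider milk and pathway lists were genes past the threshold in HER2 mutant against WT, HER2 against PIK3CA mutant or double against HER2 mutant, at most 4 per list and direction by size with a mean log2 CPM of at least 0, every casein neighbour tested, and the 5 genes most like Csn2 by Pearson r under the same minimum. Prlr, Jak2, Stat5a, Stat5b, Elf5 and the basal and alveolar markers named singly were chosen after their values were seen. Replicates of a genotype differed by more than counting noise in every pair.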

Additional observations from a re-analysis of the deposited data

Results flagged for a closer look

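In groups of 4 or 5 samples, a sample was singled out where its gap to the nearest other sample, divided by the range of the group, passed Dixon's 95% critical value. This held in 6 of the 30 groups tested. The rate of about 1 in 20 by chance assumes normally distributed values and separate groups. Here the CPM were not log-transformed and the genes share samples, so the number found cannot be set against that rate. The ratio was 0.949 for Wap, 0.928 for Glycam1 (both HER2 mutant replicate 3) and 0.897 for Lalba in HER2 mutant replicate 1. It was 0.761 for Csn1s2a and 0.742 for Btn1a1, both in double mutant replicate 1. For Glycam1 in PIK3CA mutant replicate 3 the ratio of 1.0 comes from a single count.

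The step from HER2 to double mutant differed from the step from WT to PIK3CA mutant, tested as an interaction in edgeR, by -10.8 for Csn2, -9.88 for Csn1s2a and -1.99 for Xdh on the log2 scale. Xdh was higher than WT in every sample of both single mutants, while 4 of its 5 double mutant samples were above the highest WT sample.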

How the results depend on the processing

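No difference of a milk gene that passed changed direction under another setting. Over the fits that left out 1 sample, the number of the 10 genes (Glycam1 included) that passed ranged from 0 to 1 for PIK3CA mutant against WT, 6 to 9 for HER2 mutant against WT, 1 to 3 for double mutant against WT, 5 to 6 for HER2 against PIK3CA mutant, 5 to 7 for double against HER2 mutant, 0 to 1 for double against PIK3CA mutant and 3 to 4 for the interaction. Over all genes such fits called 733 to 2693 for HER2 mutant against WT and 256 to 975 for double against HER2 mutant. In fits of only the groups compared, 4, 3, 5 and 2 genes passed for PIK3CA mutant against WT, HER2 mutant against WT, double mutant against WT and double against PIK3CA mutant, where the fit of all samples gave 1, 9, 3 and 1. DESeq2 gave 2, 5 and 2 for these comparisons other than HER2 mutant against WT. For PIK3CA mutant against WT, calls over all genes were 1096 with all samples, 4136 with only these groups and 1814 with DESeq2. The same counts were 2850, 2677 and 3988 for double mutant against WT, and 163, 364 and 613 for double against PIK3CA mutant. The number of milk genes passing thus moved along with the number over all genes in part. Median-of-ratios and upper-quartile scaling, and scaling without the milk genes, gave the counts of the fit with TMM factors.

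The replicate block, which treats samples with the same replicate number as a pair, gave 1 gene for double mutant against WT, 0 for double against PIK3CA mutant and 1 for the interaction, in place of 3, 1 and 3. Over all genes it gave 2358, 19 and 35 for these, in place of 2850, 163 and 257. For HER2 mutant against WT it gave 6 in place of 9, without Csn1s2b, Csn3 and Wap, and for double against HER2 mutant 4 in place of 5, without Xdh. Csn2 and Csn1s2a lost their interaction under the block (edgeR adjusted p = 0.0603 and 0.0769). Nothing in the labels links the numbers. Deviations of same-numbered HER2 and double mutant samples correlated at 0.0711 to 0.273 (mean 0.157), against a mean of -0.0407 for other pairs. Of 4 HER2 mutant samples, 2 correlated best with their own number. In the other pairs of genotypes the same-number means were -0.0522 to 0.0425. These values do not settle whether the numbers link samples. Over all tested genes, counts of calls for HER2 mutant against WT were 2518 in the fit of all samples, 1625 with the block, 541 with only the groups compared, 3618 with DESeq2 and 733 without WT replicate 3. For double against HER2 mutant they were 606, 118, 37 and 1652, and 256 without double mutant replicate 4. Levels under 3 counts, 0.0468 to 0.0659 CPM, are printed as counted and lie below what the depth resolves. Counts without Glycam1 were added after seeing the data.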
